A study of Mus musculus with 6 samples.

Results

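The 10 genes described here are *Ankrd6*, *Axin2*, *Lef1*, *Tcf7*, *Lrp5*, *Lrp6*, *Ctnnb1*, *Vangl2*, *Ror2* and *Wnt5a*, which carry or respond to Wnt signals. They were found by symbol among the 54532 genes of the count table, where each symbol matched a single row, and 10 of 10 were among the 14801 genes with enough reads to be tested. They were measured in 6 RNA-seq libraries of chondrocytes from Gli1-CreERT2; tdTomato mice, 3 of Gli1+ cells and 3 of Gli1- cells. The mice were 1 month old, on the C57BL/6 background, and were harvested a day after tamoxifen (TAM). Gli1+ cells were the tdTomato+ fraction and Gli1- cells the tdTomato- fraction of the same mice, both sorted as CD45-, CD31- and Ter119-. All groups therefore carried the same alleles and had received TAM, and the sort depended on Cre activity from the *Gli1* locus at that time. The tissue was costal cartilage by the study's text and growth plate by the labels. The 10 genes were chosen with their values in these libraries known, so their differences are a description and were not used as evidence.

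Wnt proteins are secreted lipid-modified ligands that bind Frizzled receptors. In the canonical branch the co-receptors LRP5 and LRP6 join the receptor, the complex that destroys beta-catenin is held off, and beta-catenin enters the nucleus, where it works with factors of the TCF/LEF family on targets such as *Axin2*. In the other branches, among them planar cell polarity, ligands such as WNT5A act through receptors such as ROR2 and the membrane protein VANGL2 to order the cytoskeleton, which in the growth plate is known for arranging chondrocytes in columns. ANKRD6, also called Diversin, is an ankyrin-repeat protein that binds components of both branches, and it is known as a brake on beta-catenin and as a partner in planar polarity.

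Totals lay between 17114101 and 18602482 counts per library. *Gli1*, the gene that drives Cre, had CPM values (read counts scaled to a common library size, TMM-normalized) of 4.55, 6.39 and 7.98 in Gli1+ libraries 1, 2 and 3 and of 0.724, 1.26 and 2.43 in the Gli1- libraries, so the groups did not overlap. Gli1+ replicate 1 had reads on 15000 genes, against 20666 to 23360 in the other libraries. The summed level of 7 chondrocyte markers was 7527 to 19896 CPM in Gli1+ and 6409 to 25933 CPM in Gli1- libraries. Taken singly, 6 of these 7 were lower and 1 higher in Gli1+, each with groups that overlapped. A sum of 6 myeloid markers stood at 3232 CPM in Gli1- replicate 1, against 7.61 to 64.2 CPM in the other 5 libraries. Sums for the other lists were 121 to 1286 CPM against 549 to 4664 CPM for perichondrium and fibroblasts, 18.4 to 46.1 against 19.3 to 57.9 CPM for osteoblasts, 2.03 to 2.96 against 3.17 to 12.0 CPM for endothelium, 0 to 4.42 against 0.582 to 18.6 CPM for erythroid cells and 1.06 to 35.9 against 3.76 to 25.3 CPM for skeletal muscle. Single markers could differ from these sums, and *Pdgfra*, *Sp7* and *Dmp1* were named after their values were seen. *Pdgfra* was at 85.4, 82.0 and 43.1 CPM in Gli1+ and 206, 355 and 264 CPM in Gli1- libraries. Of the 7 fibroblast list markers 6 were lower and 1 higher in Gli1+. *Sp7* was higher without overlap, at 5.08, 8.72 and 9.56 against 0.672, 3.78 and 3.28 CPM. *Dmp1* was lower without overlap on 0 to 41 reads, and 2 of 3 tested osteoblast markers were lower. The lymphocyte sum was 0 to 3.93 against 0.398 to 3.10 CPM over 8 markers. Of these, *Cd3e*, *Cd3d*, *Cd3g*, *Cd8a* and *Il7r* had 0 reads in each Gli1+ library and 0 to 20 reads in Gli1- libraries, while *Cd79a* had 0 to 55 reads in Gli1+ and 6 to 39 in Gli1- libraries and *Ms4a1* had 26 reads in Gli1+ replicate 2 and 0 in the other 5 libraries. The part that these library differences play in the values below was not tested, and results are also given without replicate 1. In bulk RNA, fewer cells of a type and less RNA per cell cannot be told apart.

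The following 4 stretches before transcription starts are shown because *Ankrd6* and *Axin2* had groups that did not overlap, in opposite directions. They come from RefSeq on GRCm38.p6, which had entries for 7 of the 10 genes with 14 start sites, and none for *Lrp5*, *Lrp6* and *Wnt5a*. Each holds the 250 bases before a start, and capitals mark a match to a searched motif. The first is the outermost start of *Ankrd6*, on the minus strand at chr4:32950827-32951076, with 15 of its bases in annotated exons. The second is a start inside *Ankrd6*, also on the minus strand, at chr4:32923506-32923755, and both of these starts open a transcript of the GENCODE annotation. The third is a further internal start of *Ankrd6* at chr4:32864534-32864783, in no exon, at which that annotation has no transcript start. The fourth is the start of *Axin2*, on the plus strand at chr11:108920099-108920348.
Ankrd6, outermost start: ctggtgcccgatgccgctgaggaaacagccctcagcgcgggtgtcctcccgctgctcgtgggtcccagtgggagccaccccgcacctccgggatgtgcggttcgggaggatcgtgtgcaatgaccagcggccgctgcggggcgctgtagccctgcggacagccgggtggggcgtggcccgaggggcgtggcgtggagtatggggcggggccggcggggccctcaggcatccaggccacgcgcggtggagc
Ankrd6, internal start with a GENCODE transcript: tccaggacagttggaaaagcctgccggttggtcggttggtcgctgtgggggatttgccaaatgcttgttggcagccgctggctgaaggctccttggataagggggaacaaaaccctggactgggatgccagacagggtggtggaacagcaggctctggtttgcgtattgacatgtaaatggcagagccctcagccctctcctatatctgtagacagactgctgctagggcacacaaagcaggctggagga
Ankrd6, internal start without one: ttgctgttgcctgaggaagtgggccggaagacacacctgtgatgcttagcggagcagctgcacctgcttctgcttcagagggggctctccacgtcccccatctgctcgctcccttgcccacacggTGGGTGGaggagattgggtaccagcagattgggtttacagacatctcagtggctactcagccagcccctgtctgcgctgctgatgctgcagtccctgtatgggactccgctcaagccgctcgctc
Axin2: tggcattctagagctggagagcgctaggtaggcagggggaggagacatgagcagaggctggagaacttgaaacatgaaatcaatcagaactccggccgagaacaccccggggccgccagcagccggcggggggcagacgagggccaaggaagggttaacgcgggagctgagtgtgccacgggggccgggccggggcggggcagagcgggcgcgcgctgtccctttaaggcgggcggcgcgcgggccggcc

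The TCF/LEF motif CTTTGAT was in 0 of the 14 windows, and in 3.21% of all 32851 windows of this length. CTTTGTT, a variant of it, was in 0 of 14 windows against 5.03% of all. The GLI motif GACCACCCA was in 0 of 14 windows against 0.225%. Its shorter core CCACCCA, which the longer motif contains, was in 2 of 14 windows against 8.11%. All motifs were read on both strands, and the capitals above therefore show the core as TGGGTGG, 125 to 119 bases before the internal start of *Ankrd6* that opens no GENCODE transcript. The windows of the other *Ankrd6* starts held none of the motifs. The other match lay 245 to 239 bases before the start of *Ror2*. A match is a run of letters and was not measured as a bound site.

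*Ankrd6* (ENSMUSG00000040183, chr4:32804035-32950841) differed most between the populations among the 10 genes. It was at 31.1, 18.4 and 22.7 CPM in Gli1+ libraries 1, 2 and 3 and at 1.91, 2.72 and 4.50 CPM in Gli1- libraries 1, 2 and 3. Every Gli1+ library lay above every Gli1- library, and the lowest Gli1+ value was 4.10 times the highest Gli1- value. The means were 24.1 ± 6.43 CPM and 3.04 ± 1.32 CPM (SD, n = 3 each), a ratio of 7.91. The fitted log2 fold change (log2FC, Gli1+ against Gli1-) was 2.98 with an SE of 0.54 and a 95% interval of 1.75 to 4.21. These values rest on 300 to 587 reads per Gli1+ library and on 37 to 85 reads per Gli1- library. Its log2FC ranked 16 from the top among the 14801 genes tested.

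The same-numbered libraries differed by 3.94, 2.71 and 2.31 on the log2 CPM scale for pairs 1, 2 and 3. Pair 1 thus held the widest gap of the 3. Without replicate 1 of both populations the log2FC of *Ankrd6* was 2.50 with an SE of 0.55, and over 17 fits that differed in scaling, filter, tool or libraries it ran from 2.50 to 3.37. The direction did not change in any of them, but they reuse the same libraries. Because every Gli1+ library lay above every Gli1- library, leaving libraries out could not have reversed it.

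*Wnt5a* (ENSMUSG00000021994, chr14:28504750-28527448), the ligand of the set, was at 8.62, 3.99 and 7.51 CPM in Gli1+ libraries and at 5.02, 2.06 and 1.96 CPM in Gli1- libraries. The groups overlapped, because Gli1+ replicate 2 lay below Gli1- replicate 1, yet the Gli1+ library was the higher in 3 of 3 pairs. Its log2FC was 1.15 (SE 0.65, 95% interval -0.33 to 2.64). Without replicate 1 the log2FC was 1.51 (SE 0.68) and the groups no longer overlapped.

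*Ror2* (ENSMUSG00000021464, chr13:53109312-53286124) encodes a receptor tyrosine kinase for WNT5A. Its level was 58.8, 30.6 and 56.2 CPM in Gli1+ and 68.0, 37.2 and 37.7 CPM in Gli1- libraries. The groups overlapped almost fully, and the log2FC was 0.028 (SE 0.45, 95% interval -0.999 to 1.06). The ratio of *Ror2* to *Wnt5a*, each per kilobase of gene length, was 12.6, 14.2 and 13.8 in Gli1+ libraries and 25.0, 33.4 and 35.5 in Gli1- libraries. *Ror2* transcripts thus outnumbered *Wnt5a* transcripts in each library, by a smaller ratio in each Gli1+ library than in any Gli1- library. With little difference in *Ror2*, this came mostly from *Wnt5a*, whose own groups overlapped.

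*Lrp5* (ENSMUSG00000024913, chr19:3584828-3686564), a co-receptor of the canonical branch, was at 68.2, 21.2 and 42.4 CPM in Gli1+ libraries and at 80.1, 30.7 and 45.5 CPM in Gli1- libraries. The Gli1+ library was the lower in 3 of 3 pairs, but the groups overlapped and the spread within each was wider than the gap between them. The log2FC was -0.25 (SE 0.55, 95% interval -1.52 to 1.02). Leaving out a single library, which splits a pair, could change the sign. The log2FC was -0.74 without Gli1+ replicate 1, 0.070 without Gli1+ replicate 2 and 0.19 without Gli1- replicate 1. It stayed below 0 in edgeR fits that kept pairs whole, at -0.29 with the replicate number as a block and -0.27 without replicate 1 of both populations.

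*Lrp6* (ENSMUSG00000030201, chr6:134446476-134566965), the other co-receptor, was at 250.4, 59.4 and 105 CPM in Gli1+ libraries and at 146, 103 and 204 CPM in Gli1- libraries. Gli1+ replicate 1 was the highest of the 6 libraries and Gli1+ replicate 2 the lowest. The log2FC was -0.12 (SE 0.58, 95% interval -1.46 to 1.22), which moved to -0.89 when Gli1+ replicate 1 was left out and to 0.22 when Gli1+ replicate 2 was. Both of these fits split a pair. Within pairs 1, 2 and 3 the log2 CPM difference was 0.78, -0.79 and -0.95, so the pairs themselves did not share a direction. In DESeq2 with the replicate number as a block and without replicate 1, *Lrp6* had a log2FC of -0.87 and an adjusted p of 0.00253, and missed a call there by its fold alone.

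*Ctnnb1* (ENSMUSG00000006932, chr9:120929216-120960507), which encodes beta-catenin, was at 404, 208 and 320 CPM in Gli1+ libraries and at 386, 294 and 319 CPM in Gli1- libraries. The groups overlapped and the log2FC was -0.10 (SE 0.43, 95% interval -1.09 to 0.88). The ratio of *Ankrd6* to *Ctnnb1* per length was 0.0728, 0.0841 and 0.0672 in Gli1+ libraries and 0.00469, 0.00876 and 0.0134 in Gli1- libraries. Both populations thus held far more beta-catenin transcript than *Ankrd6* transcript, and the ratio followed the difference in *Ankrd6*.

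*Lef1* (ENSMUSG00000027985, chr3:131110471-131224356), a nuclear partner of beta-catenin, was at 11.1, 5.83 and 6.72 CPM in Gli1+ libraries and at 4.76, 2.06 and 4.02 CPM in Gli1- libraries. The groups did not overlap, with the lowest Gli1+ library 1.23 times the highest Gli1- library. The means were 7.87 ± 2.80 CPM and 3.61 ± 1.40 CPM (SD, n = 3 each), and the log2FC was 1.12 (SE 0.58, 95% interval -0.22 to 2.46). Without Gli1+ replicate 1, which splits a pair, the log2FC was 0.77. It was 1.04 (SE 0.65) without replicate 1 of both populations and 1.15 with the replicate number as a block in edgeR.

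*Tcf7* (ENSMUSG00000000782, chr11:52252371-52283014) encodes TCF1, of the same family. It was at 22.5, 10.6 and 14.9 CPM in Gli1+ libraries and at 16.2, 9.42 and 14.5 CPM in Gli1- libraries. The Gli1+ library was the higher in 3 of 3 pairs, but the groups overlapped, and the log2FC of 0.26 (SE 0.48) became -0.092 without Gli1+ replicate 1. That fit split a pair. In edgeR fits that kept pairs whole the log2FC stayed above 0. It was 0.23 with the replicate number as a block and 0.089 without replicate 1 of both populations. Per length, *Tcf7* exceeded *Lef1* by 6.81, 6.10 and 7.43 times in Gli1+ libraries and by 11.4, 15.3 and 12.1 times in Gli1- libraries. The balance of these related factors thus lay nearer to *Lef1* in each Gli1+ library than in any Gli1- library, with *Tcf7* the higher in all of them. With little difference in *Tcf7*, this came mostly from *Lef1*.

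*Axin2* (ENSMUSG00000000142, chr11:108920349-108950783), a feedback inhibitor that is widely used as a readout of canonical signalling, was lower in Gli1+ libraries. It was at 0.741, 2.09 and 1.73 CPM there and at 2.53, 2.19 and 4.18 CPM in Gli1- libraries, on 14 to 79 reads per library. Every Gli1- library lay above every Gli1+ library, although Gli1+ replicate 2 and Gli1- replicate 2 were close. The means were 1.52 ± 0.698 CPM and 2.97 ± 1.06 CPM (SD, n = 3 each), and the log2FC was -0.96 (SE 0.73, 95% interval -2.63 to 0.70). It moved to -0.63 without Gli1- replicate 3 and to -0.66 without Gli1+ replicate 1, and both of these fits split a pair. In edgeR without replicate 1 of both populations the log2FC was -0.74 (SE 0.74). With the replicate number as a block it was -1.03. *Lef1*, which is also known as a target of the pathway, was thus placed on the other side of zero from *Axin2*.

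*Vangl2* (ENSMUSG00000026556, chr1:172000960-172028444), a core planar polarity gene, was at 1.53, 3.32 and 1.52 CPM in Gli1+ libraries and at 1.71, 2.19 and 1.06 CPM in Gli1- libraries. With 20 to 54 reads per library the groups overlapped, and the log2FC was 0.36 (SE 0.74, 95% interval -1.33 to 2.06). Per length, *Ankrd6* exceeded *Vangl2* by 25.8, 7.09 and 19.0 times in Gli1+ libraries and by 1.43, 1.59 and 5.42 times in Gli1- libraries.

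**Figure D1:**
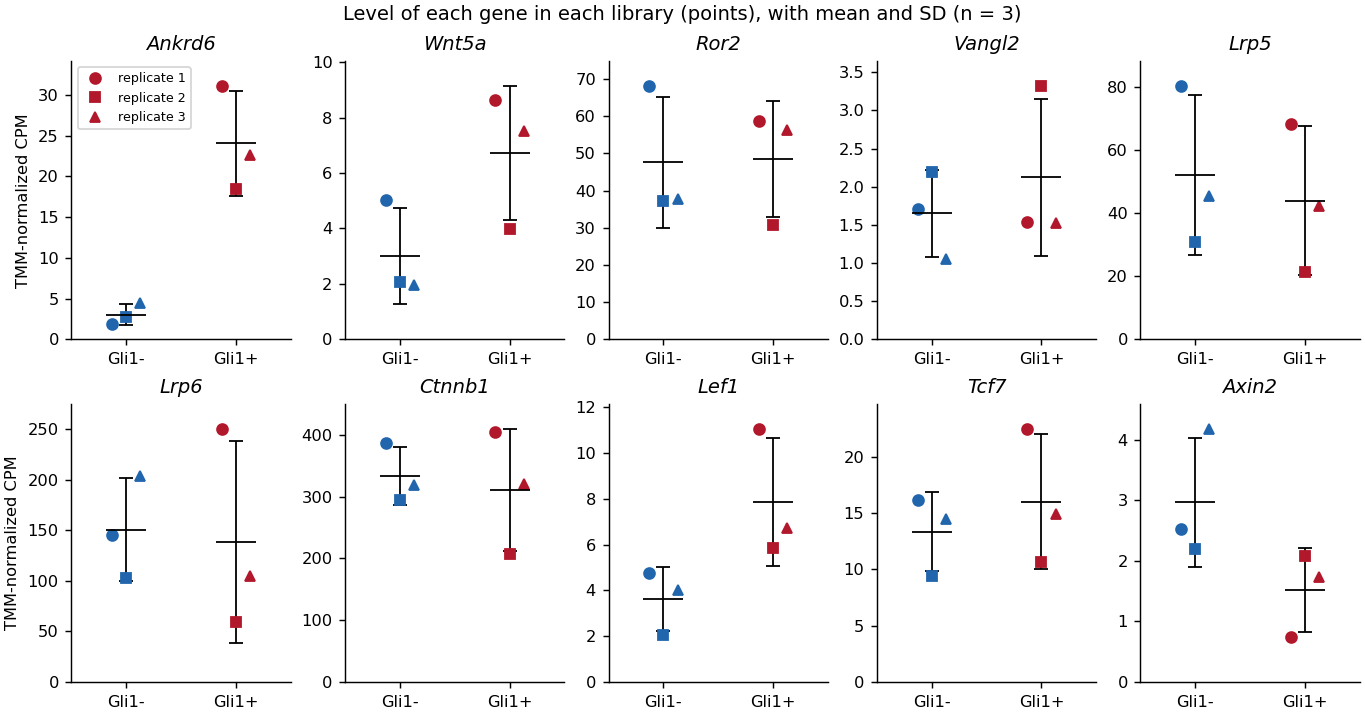
TMM-normalized CPM (vertical axes, each starting at 0) of the 10 genes in 3 Gli1- and 3 Gli1+ libraries, with points by replicate, horizontal lines for means and bars for SD. *Ankrd6* (18.4 to 31.1 against 1.91 to 4.50 CPM) and *Lef1* stand higher and *Axin2* lower in Gli1+ libraries without overlap, while the other 7 overlap.

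At an adjusted p under 0.05 and a |log2FC| over 1, edgeR's quasi-likelihood test with Benjamini-Hochberg adjustment called 0 of the 10 genes, and 0% of all genes tested. The study reported differentially expressed genes between these populations at the same thresholds. The 0 calls here are therefore not a finding that the populations were alike. The smallest adjusted p over all genes was 0.9999, and 514 genes (3.47%) were under an unadjusted 0.05, of which *Ankrd6* was the single member. The groups did not overlap for 3 of the 10 genes, *Ankrd6*, *Lef1* and *Axin2*, against 8.49% of all genes (4.04% higher and 4.45% lower in Gli1+), a share from which nothing is read because the 10 were chosen on this contrast. Of the 10, 6 had the same direction in all 3 pairs, against 37.4% of all genes. Their median log2FC was 0.14, with 6 above 0 and 4 below, beside a median of 0.0013 over all genes tested.

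The count of calls depended on the tool. DESeq2 called 16 genes, 0.0963% of those it tested, and *Ankrd6* was among them. With the replicate number as a block it called 424 genes (3.12%), again with *Ankrd6* and none of the other 9, while edgeR with the same block called 0 (0%). In that blocked edgeR fit *Ankrd6*, *Lef1* and *Wnt5a* were under an unadjusted 0.05, as were 8.61% of all genes. Without the filter on low counts, edgeR called 267 genes (0.936%), *Ankrd6* among them. In the DESeq2 fit with the block and without replicate 1, 725 genes were called (5.73%), and of the 10 these again held *Ankrd6* alone. Without replicate 1 the groups did not overlap for *Ankrd6*, *Lef1*, *Wnt5a* and *Axin2*, against 23% of all genes.

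**Figure D2:**
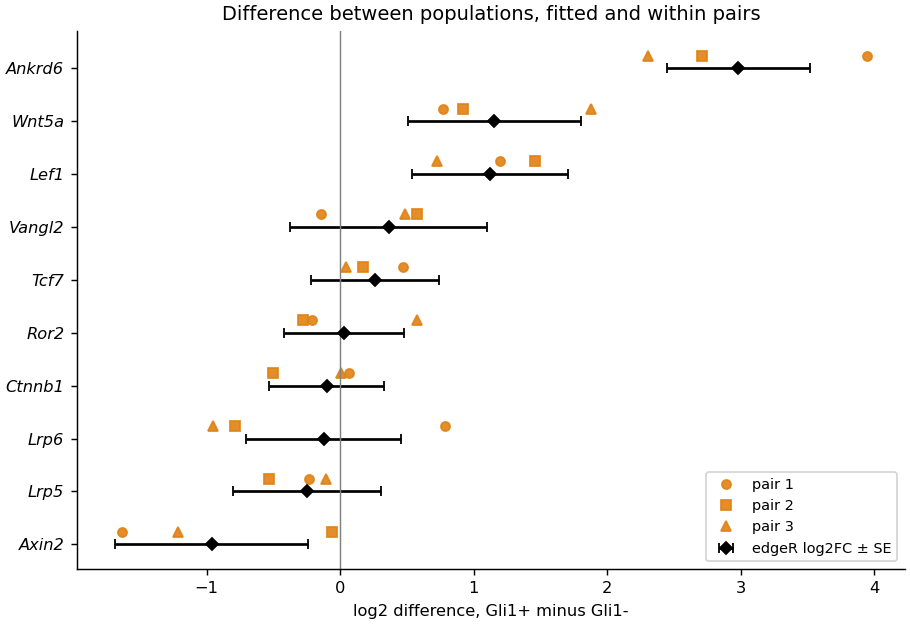
Log2 difference of Gli1+ minus Gli1- (horizontal axis) for the 10 genes: diamonds with bars show the edgeR log2FC ± SE over 6 libraries, and orange symbols the log2 CPM difference within each pair. *Ankrd6* lies at 2.98 with all pairs above 2, *Wnt5a* and *Lef1* lie near 1.1, and *Axin2* lies at -0.96.

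Levels of different genes were compared as CPM per kilobase of gene length. In Gli1+ libraries the mean levels ran, from the top, *Ctnnb1* at 59.8, *Ror2* at 11.4, *Lrp6* at 10.1, *Tcf7* at 6.10, *Lrp5* at 4.51, *Ankrd6* at 4.39, *Lef1* at 0.896, *Wnt5a* at 0.858, *Vangl2* at 0.304 and *Axin2* at 0.276. Neighbours in this order had library ranges that did not overlap only between *Ctnnb1* and *Ror2*, between *Ankrd6* and *Lef1* and between *Wnt5a* and *Vangl2*. In Gli1- libraries *Ctnnb1* was again first at 64.2, followed by *Ror2* at 11.2, *Lrp6* at 11.0, *Lrp5* at 5.35 and *Tcf7* at 5.09. A gap then separated *Ankrd6* at 0.556, *Axin2* at 0.539, *Lef1* at 0.411, *Wnt5a* at 0.385 and *Vangl2* at 0.236, whose ranges overlapped from each to the next. *Ankrd6* thus stood among the receptors and *Tcf7* in Gli1+ cells, and among the scarce transcripts in Gli1- cells.

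**Figure D3:**
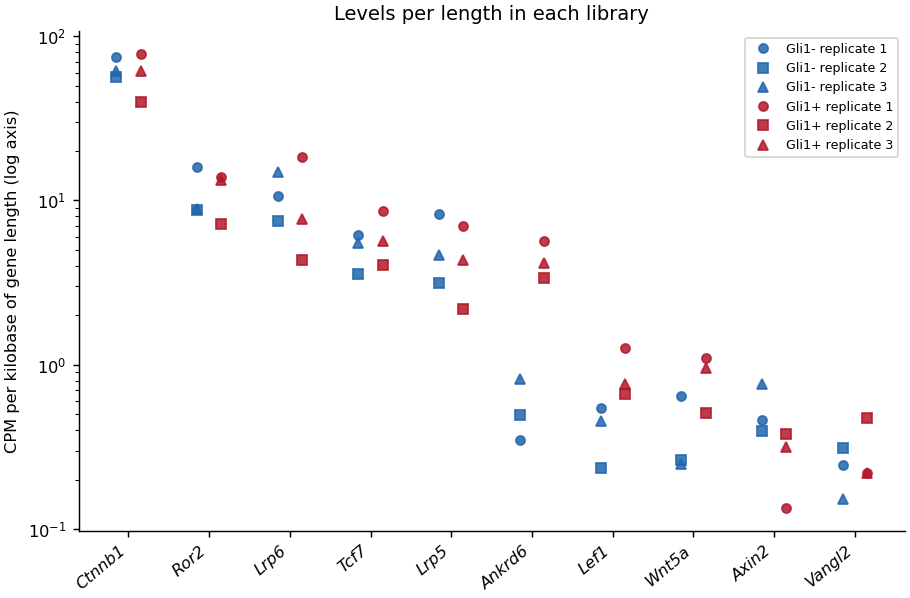
CPM per kilobase of gene length (vertical log axis) of the 10 genes in each library, ordered by the mean over 6 libraries, with Gli1- in blue and Gli1+ in red. *Ctnnb1* is the highest in both populations (59.8 and 64.2 on average), and the red and blue points of *Ankrd6* are far apart (4.39 and 0.556).

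The 5 genes most like *Ankrd6* over the 6 libraries, by the root-mean-square distance of mean-centred log2 CPM, were *Exo1* (0.195), *Mmp13* (0.280), *Ugt1a9* (0.370), *Sh3tc2* (0.438) and *Mmp1b* (0.453). *Mmp13* encodes a collagenase of hypertrophic chondrocytes and was by far the most abundant of them, at 5328, 2861 and 4859 CPM in Gli1+ libraries and 457, 592 and 607 CPM in Gli1- libraries. *Sh3tc2* was at 9.26, 5.10 and 7.46 CPM against 1.24, 0.729 and 1.22 CPM. *Exo1*, a DNA repair exonuclease, had 20 to 44 reads in Gli1+ libraries and 1 to 4 in Gli1- libraries. *Mmp1b* had 19 to 57 against 2 or 3, and *Ugt1a9* had 33 to 62 against 4 to 14. All 3 passed the count filter through the Gli1+ libraries. The closeness of *Exo1* and *Mmp1b* depends on the prior count of 2, since the ratio of mean CPM was 17.2 for *Exo1*, 14.5 for *Mmp1b* and 7.91 for *Ankrd6*. These distances describe 6 libraries and were not tested.

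A further 6 lists of Wnt genes held 97 genes, of which 82 were tested. The edgeR test called 0 of the 82 (0% of all genes), and 6 of 82 were under an unadjusted 0.05, beside 3.47% of all genes. Those 6 were 4 of the Frizzleds and co-receptors and 2 of the other targets, with 0 in the other 4 lists. DESeq2 called 0 of the 82 without the block. With it, DESeq2 called *Ccnd1* higher and *Fzd10* and *Tnfrsf19* lower in Gli1+ cells, against 3.12% of all genes. In the DESeq2 fit with the block and without replicate 1, *Ccnd1* and *Wnt7b* were called higher and *Fzd10*, *Tnfrsf19*, *Lgr6* and *Prickle2* lower, against 5.73% of all genes. The 82 had a median log2FC of -0.21, with 31 above 0 and 51 below, against 50.1% of all genes above 0. Groups did not overlap for 12 of 82, 5 higher and 7 lower in Gli1+, beside 8.49% of all genes.

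Among other Wnt ligands, 8 of 18 were tested, with a median log2FC of 0.75 and 6 of 8 above 0. The edgeR test called 0, and DESeq2 called *Wnt7b* in the fit with the block and without replicate 1. *Wnt11* had the highest mean level, at 73.9 ± 54.1 CPM in Gli1+ libraries against 51.2 ± 20.3 CPM in Gli1- libraries (SD, n = 3 each here and below), although its pair 1 went the other way, at 12.9 against 28.3 CPM. *Wnt10b* was at 12.9, 12.7 and 16.6 CPM in Gli1+ and at 7.45, 7.10 and 7.88 CPM in Gli1- libraries. Its groups did not overlap, and its log2FC was 0.91 (SE 0.43). *Wnt7b*, a ligand with canonical activity, was the higher in Gli1+ in 3 of 3 pairs, with a log2FC of 1.32 (SE 0.61), and the ends of the list were *Wnt2b* at 1.93 (SE 1.21) and *Wnt9a* at -1.25 (SE 0.82). The value of *Wnt2b* came from pair 1, at 11.2 against 1.09 CPM, while pair 2 was at 0.368 against 0.332 CPM and pair 3 at 2.21 against 2.17 CPM.

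Of 19 Frizzleds and co-receptors, 19 were tested, 8 with a log2FC above 0 and 11 below, with a median of -0.040. These counts include *Rspo1*, *Rspo2*, *Rspo3* and *Rspo4*, which encode secreted proteins and not receptors. Named after their values were seen, they had log2FC values of -1.28, -1.03, -0.040 and -0.16. The edgeR test called 0, DESeq2 with the block called *Fzd10*, and the same fit without replicate 1 called *Fzd10* and *Lgr6*. The abundant ones differed little, with *Ryk* at 107 ± 23.5 against 90.5 ± 21.0 CPM, *Fzd7* at 66.3 ± 21.0 against 74.0 ± 19.5 CPM and *Lgr4* at 42.7 ± 6.80 against 42.4 ± 13.4 CPM. *Fzd10*, a Frizzled receptor, was at 0.582, 1.11 and 1.68 CPM in Gli1+ and at 7.24, 7.16 and 5.92 CPM in Gli1- libraries. The groups did not overlap, and its log2FC was -2.59 (SE 0.65, unadjusted p = 0.0039 by edgeR's quasi-likelihood test, adjusted p = 0.9999). *Ror1*, the relative of *Ror2*, was at 30.1, 5.40 and 6.35 CPM in Gli1+ and at 4.14, 2.39 and 3.49 CPM in Gli1- libraries. These groups did not overlap either, but a single library, Gli1+ replicate 1, was well above the rest, and the log2FC was 2.06 (SE 0.77, unadjusted p = 0.0279 by edgeR, adjusted p = 0.9999). *Ptk7* and *Fzd9*, named after their values were seen, were also under an unadjusted 0.05, with log2FC values of 0.99 (SE 0.39) and -1.25 (SE 0.50). The groups of *Ptk7* did not overlap. Those of *Fzd9* did, and its pair 3 went the other way, at 28.6 against 26.6 CPM. *Lgr6*, a relative of *Lgr4* also named after its values were seen, had a log2FC of -1.19 (SE 0.56).

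In the Dishevelled and destruction complex list, 14 of 14 genes were tested, 4 with a log2FC above 0 and 10 below, with a median of -0.41 and 0 called by edgeR or in any of the DESeq2 fits. *Csnk1a1*, a casein kinase that primes beta-catenin for breakdown, was at 336 ± 65.7 against 366 ± 57.1 CPM. *Fbxw11*, a ubiquitin ligase subunit, was at 196 ± 27.5 against 312 ± 27.4 CPM, and *Csnk1d* at 193 ± 34.1 against 272 ± 14.4 CPM, and neither had overlapping groups. The ends of the list were *Amer1* at 1.72 (SE 0.90) and *Apc2* at -0.90 (SE 1.43). *Amer1* was at 14.2, 2.15 and 2.42 CPM in Gli1+ libraries and 2.33, 0.995 and 2.33 CPM in Gli1- libraries, so Gli1+ replicate 1 alone stood well above the rest.

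Of 12 nuclear partners of beta-catenin, 12 were tested and 11 had a log2FC below 0, with a median of -0.37 and 0 called by edgeR or in any of the DESeq2 fits. Over all genes 50.1% had a log2FC above 0. In this list 4 genes were lower in all 3 pairs, beside 19.8% of all genes, and 1 was higher in all 3. Groups were lower in Gli1+ without overlap for 0 of the 12, beside 4.45% of all genes. *Tle3* and *Tle1*, co-repressors, were at 70.3 ± 18.5 against 74.8 ± 42.1 CPM and at 53.2 ± 14.6 against 61.2 ± 10.7 CPM. *Pygo2*, a co-activator, was at 54.0 ± 35.8 against 68.6 ± 35.4 CPM. The exception in direction was *Pygo1*, with a log2FC of 1.06 (SE 0.62) that came mostly from Gli1+ replicate 1 (21.4 CPM, against 6.14 and 7.04 CPM in the other Gli1+ libraries), and the lowest was *Tle2* at -0.71 (SE 0.70).

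Among other canonical targets, 8 of 12 were tested, 3 above 0 and 5 below, with a median of -0.27. The edgeR test called 0, and DESeq2 with the block called *Ccnd1* and *Tnfrsf19*. *Ccnd1*, which encodes cyclin D1, was at 114 ± 61.8 against 41.4 ± 23.8 CPM, with a log2FC of 1.46 (SE 0.59, unadjusted p = 0.0381 by edgeR, adjusted p = 0.9999). *Tnfrsf19* was at 2.12, 0.983 and 0.788 CPM in Gli1+ and at 11.2, 5.04 and 4.13 CPM in Gli1- libraries, with no overlap and a log2FC of -2.38 (SE 0.72, unadjusted p = 0.0108 by edgeR, adjusted p = 0.9999). *Myc* was at 361 ± 139 against 418 ± 98.1 CPM, and *Znrf3*, which removes Frizzleds from the cell surface, at 34.7 ± 34.4 against 22.2 ± 14.1 CPM. The direction of *Znrf3* came from Gli1+ replicate 1 (72.9 CPM, against 5.83 and 25.5 CPM), since Gli1+ was the lower in pairs 2 and 3. The values of the targets thus lay on both sides of 0, as those of *Lef1* and *Axin2* did. In this list 0 genes were higher and 2 lower in Gli1+ without overlap, beside 4.04% and 4.45% of all genes. The 2 were *Tnfrsf19* and *Notum*, the latter named after its values were seen.

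In the planar polarity list, 21 of 22 genes were tested, 9 above 0 and 12 below, with a median of -0.16. The edgeR test called 0, and 0 had groups that did not overlap, beside 8.49% of all genes. *Rock2*, *Rac1* and *Rhoa*, which act on the cytoskeleton, were at 553 ± 496 against 286 ± 122 CPM, 339 ± 202 against 485 ± 192 CPM and 323 ± 88.7 against 362 ± 91.3 CPM. The higher mean of *Rock2* in Gli1+ cells came from replicate 1 (1121 CPM, against 207 and 332 CPM), and pairs 2 and 3 differed by -0.11 and -0.36 on the log2 scale. The ends of the list were *Fat4* at 1.28 (SE 0.73) and *Celsr3* at -1.65 (SE 1.18), both cadherins, and *Fat4* was at 74.2 CPM in Gli1+ replicate 1 against 9.58 and 25.6 CPM in the other Gli1+ libraries. *Prickle2*, a polarity gene named after its values were seen, was called lower in Gli1+ cells by DESeq2 with the block and without replicate 1.

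**Figure D4:**
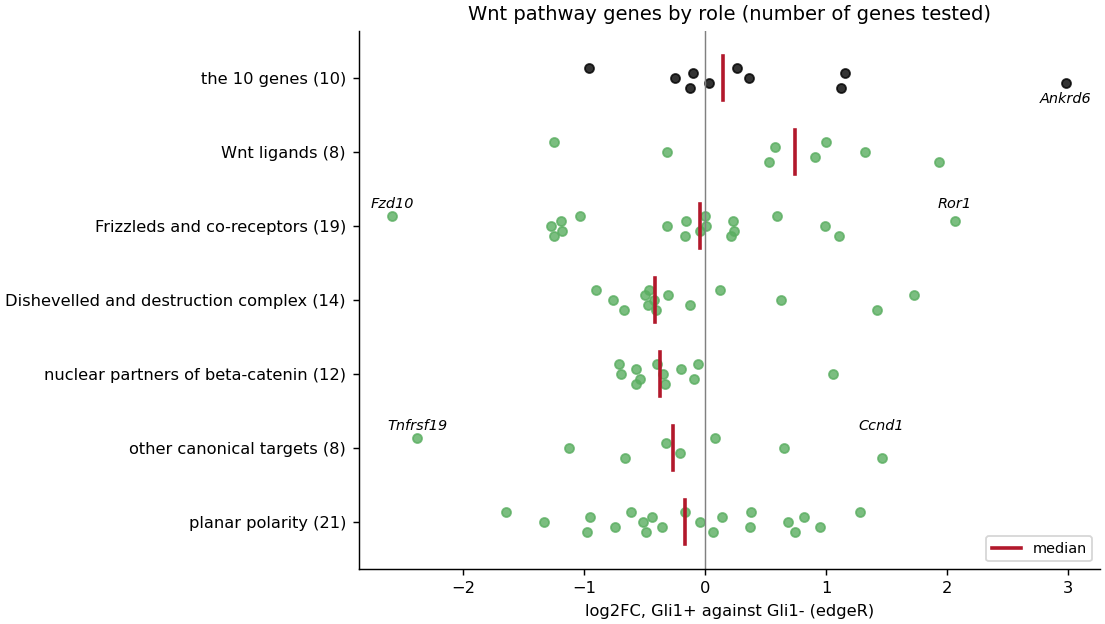
Log2FC of Gli1+ against Gli1- (horizontal axis) for each tested gene of the 10 (black) and of 6 Wnt lists (green), with red lines at each list's median and the number tested in brackets. *Ankrd6* lies furthest to the right at 2.98, *Fzd10* (-2.59) and *Tnfrsf19* (-2.38) furthest to the left, and the nuclear partners lie below 0 except *Pygo1*.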

How the data were processed

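RNA from sorted Gli1+ and Gli1- cells was measured by RNA-seq in 6 libraries, 3 per population, described in the study as biological replicates. The authors deposited raw counts of reads per gene, without normalization or pooling. The submitters' processing notes name HISAT2 2.0.5 and featureCounts 1.5.0-p3; the annotation and the use of strand are not given in the sources used here, so reads of a gene and an antisense partner cannot be told apart. The coordinates of 10 of 10 genes matched GENCODE's mouse annotation of GRCm38.

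The 10 genes and all lists were chosen with earlier results of these data known. Genes were filtered with filterByExpr (minimum count 10), scaled by TMM and tested with edgeR 4.0.16 in R 4.3.3 by the quasi-likelihood test, with Benjamini-Hochberg adjustment over 14801 genes. Calls needed an adjusted p under 0.05 and a |log2FC| over 1. The log2FC values use edgeR's default prior count of 0.125. They were first computed with a prior count of 2, and the setting was changed after those values had been seen, which left every p-value as it was. Log2 CPM values use a prior count of 2. P-values of the main test set the difference between the populations against the spread between libraries within each. They leave out the pairing by mouse, which only the fits with the replicate block take in. Alternatives included other scalings, no filter, DESeq2 1.42.0, limma-voom (limma 3.58.1), the replicate block and libraries left out. The scripts were tested on simulated data. All 10 genes were named in the text, with *Gli1*, and from each list the 3 genes with the highest mean CPM, any gene that passed the edgeR test as described (there was none), and the highest and lowest log2FC. The 5 nearest genes to *Ankrd6* were also named. Lists contained 97 genes. Other genes are said to have been named after their values were seen.

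Both populations came from the same mice by the study's text. After each population's mean was subtracted, libraries 1, 2 and 3 of the populations correlated with their namesakes over genes at 0.223, 0.720 and 0.471, all over 0.1, although Gli1+ library 1 correlated more with Gli1- library 3 (0.274) than with Gli1- library 1. With all 3 over that value, equal numbers were treated as pairs. That bar did not single out these pairs, since Gli1+ library 3 with Gli1- library 1 (0.107) also passed it. Genes are not independent replicates, and the coefficients only describe the libraries. Per-length levels divide CPM by the gene length in the table. Figures were drawn with matplotlib 3.10.9.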

Additional observations from a re-analysis of the deposited data

How the results depend on the processing

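Against 0 genes called of 14801 by edgeR, 267 were called with no filter on low counts, 16 by DESeq2, 424 by DESeq2 with the replicate block and 725 by DESeq2 with the replicate block and without replicate 1. Of the 10 genes, 1 was called in each of these 4 fits, *Ankrd6* every time, and of the Wnt lists 3 and 6 genes were called in the last 2. Fits with RLE or total-count scaling, limma-voom or the edgeR replicate block called 0 genes, as did a prior count of 2 in the fit and edgeR without replicate 1, both added after seeing the data. Leaving out single libraries in edgeR gave 0 to 0 calls. The replicate block changed no call among the 10 genes in either tool, although it moved the count over all genes in DESeq2. With it, the smallest adjusted p in edgeR was 0.307, and 1274 genes (8.61%) were under an unadjusted 0.05, against 514 without it. The cause of these differences between tools was not tested.

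Over 17 fits, *Ankrd6*, *Wnt5a* and *Lef1* had a log2FC above 0 and *Axin2* one below 0 in each. These fits reuse the same libraries. For *Ankrd6*, *Lef1* and *Axin2*, whose groups did not overlap, leaving libraries out could hardly have reversed the sign. A prior count of 2 moved the log2FC of *Ankrd6* from 2.98 to 2.94 and that of *Axin2* from -0.96 to -0.92. *Tcf7* and *Vangl2* changed sign in 1 fit, *Lrp5* and *Ctnnb1* in 2 and *Lrp6* in 3, and *Ror2* was above 0 in 10 and below in 7. Without replicate 1, in a comparison added after seeing the data, the groups did not overlap for 4 of the 10 genes and 24 of the 82 list genes, against 23% of all genes. Counts under 100 reads per library for *Axin2* and *Vangl2* limit what can be seen of them.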
